A study of Myzus persicae with 16 samples.

Results

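The transcript response to alarm pheromone was measured in green peach aphids, Myzus persicae, that had been reared on wild-type Arabidopsis thaliana Col-0. It was read from the 4 arrays of the series that put exposed against solvent-treated Col-0-reared aphids, out of 16 arrays in all, chosen by their titles. Pools of 50 aphids were held for 30 min with 1 µg of EBF in hexane (exposed aphids) or with hexane alone (solvent aphids). All aphids were of a red tobacco-adapted strain and had lived on their host for at least 6 months, with days of 16 h and nights of 8 h, and the labels call those from Col-0 not habituated. The other 12 arrays bring in aphids reared on 35S:EBFS plants, which carry an EBF synthase transgene behind the constitutive 35S promoter of cauliflower mosaic virus and emit EBF, likewise exposed or given hexane. Those 12 arrays hold exposed over solvent 35S:EBFS-reared aphids, exposed Col-0-reared over exposed 35S:EBFS-reared aphids, and solvent 35S:EBFS-reared over solvent Col-0-reared aphids, with 4 arrays each.

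EBF, (E)-beta-farnesene, is the main alarm pheromone of aphids. An attacked aphid releases it from its cornicles, and neighbours detect it with olfactory neurons of the antennae, withdraw their stylets and walk away or drop from the plant. Each array carried 14628 probes with 10489 identifiers, nearly all numbers of assembled contigs, and 0 of these identifiers matched a gene of the RefSeq annotation (assembly MPER_G0061.0). No gene name, function or sequence is therefore given, and neither pathways nor tissue markers could be read. RNA came from pools of homogenized aphids, so fewer cells of a type and less RNA per cell cannot be told apart.

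On these 4 arrays, exposed aphids carried the green Alexa Fluor dye AF555 on arrays 1 and 3 and the red dye AF647 on arrays 2 and 4. The median signal of the probes was between 1695 and 3278 in exposed and between 1550 and 2660 in solvent channels, on the scanner's linear intensity scale. The scanner software set 77.1% to 81.1% of probes well above background in exposed channels and 76.4% to 81.4% in solvent channels. No spot was saturated. A probe entered the fits if any 1 of the 4 conditions had it well above background in 4 or more of its 8 channels, which left 12780 probes. All values are log2 ratios of exposed over solvent aphids after background correction and loess within each array, so that 1 stands for a doubling. The number of arrays limits the precision. The labels do not say whether arrays share RNA extracts, and a p-value here therefore reflects only how these arrays scatter, which may be technical.

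Most ratios were small. The mean ratio over the 4 arrays had a median of 0.01, and its 5th and 95th percentiles were -0.41 and 0.55. The median SD of a probe over the 4 arrays was 0.27. A mean change of over 2-fold was reached by 262 probes, 2.05% of those tested, of which 134 (1.05%) were higher and 128 (1%) lower in exposed aphids. The ratio had the same sign on all 4 arrays for 2853 probes (22.3%), with 1458 (11.4%) higher and 1395 (10.9%) lower in exposed aphids. Of these, 146 also exceeded 2-fold in the mean, 61 higher and 85 lower. A change of over 2-fold on each of the 4 arrays was seen for 13 probes, 1 higher and 12 lower in exposed aphids.

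The first question was which transcripts differed between exposed and solvent aphids on these 4 arrays alone. In limma, with a dye effect per probe, 0 of 12780 probes (0%) had a Benjamini-Hochberg adjusted p under 0.05, and the smallest adjusted p was 0.0818. An unadjusted p under 0.05 was reached by 1918 probes (15% of those tested), 1056 higher (8.26%) and 862 lower (6.74%) in exposed aphids. They belong to 1507 identifiers. The split varied with the setting: without array 2 it was 863 higher and 420 lower, and among the 10611 probes well above background in all channels of the 4 arrays it was 687 higher and 724 lower. The median change was 0.52 among the higher and -0.45 among the lower of them, while the changes reached 2.78 and -3.56. The call of 0 was not kept without array 3, where 139 probes had an adjusted p under 0.05, 60 higher and 79 lower. In that smaller fit contig3082, described below, had a change of -2.23 with a standard error of 0.16. With all 4 arrays these were -2.36 and 0.14. Contig2337, also described below, had a change of -2.38 with a standard error of 0.22 without array 3, against -2.34 and 0.17 with all 4. A count of calls alone does not show that changes were stronger without array 3. The cause of the added calls was not tested.

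Contig4816 and contig352 had the smallest p among probes that were higher in exposed aphids on all 4 arrays. Contig4816 had normalized signals of 272.5, 491.1, 456.2 and 300.3 in exposed aphids on arrays 1 to 4, against 149.4, 182.6, 188.4 and 113.6 in solvent aphids. The signal was higher in exposed aphids on every array, and the lowest exposed value lay above the highest solvent value. Signals were normalized within arrays, not between them. For all named contigs, overlap of signals between arrays is therefore only a description, and the ratio within each array compares the treatments. The probe was well above background in 4 of 4 exposed channels and in 0 of 4 solvent channels. A cautious value put its level 1.66-fold higher in exposed aphids. This value sets the exposed mean against, per array, the higher of the solvent signal and the dimmest signal counted as above background. It carries no sampling error and is not a guaranteed minimum. The limma adjusted p was 0.120. The measured log2 ratio sets the exposed signal against channels not above background and so depends on the background step: its mean was 1.24, but 1.59 with offset 0 and 2.12 with the scanner software's processed signals. With the filter that needs all channels above background the contig was not tested.

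Contig352 had signals of 440.0, 678.1, 485.3 and 345.5 in exposed aphids, against 246.5, 282.7, 208.6 and 139.3 in solvent aphids. Again the groups did not overlap. The ratio averaged 1.16 ± 0.22 (SD, n = 4; limma adjusted p 0.120), and the second probe of the contig averaged 1.20 ± 0.49. With the scanner software's processed signals the ratio of the first probe was 1.88. The first probe was well above background in 4 exposed and 2 solvent channels, and the second in 4 and 3.

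Contig3082 and contig2337 had the smallest p among probes that were lower in exposed aphids on all 4 arrays, and both lay among the brightest on the array. Contig3082 had signals of 5655, 56560, 5087 and 39420 in exposed aphids, against 65120, 93640, 83100 and 87070 in solvent aphids. The groups did not overlap, but the size of the difference split by dye orientation. Arrays 1 and 3 may also hold other pools than arrays 2 and 4, so dye and pool cannot be told apart here. The ratio was -3.53 and -4.03 on arrays 1 and 3, where exposed aphids carried AF555, and -0.73 and -1.14 on arrays 2 and 4. The mean was -2.36 ± 1.66 (SD, n = 4), and the second probe gave -2.32. With the dye effect in the model the standard error was 0.14 and limma's adjusted p 0.0818, and without it the standard error was 0.62 and the adjusted p 0.242.

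Contig2337 showed the same split. Its signals were 4599, 59430, 6107 and 38090 in exposed aphids, against 71240, 76930, 83430 and 90990 in solvent aphids, again without overlap. The ratios were -3.95 and -3.77 on arrays 1 and 3, and -0.37 and -1.26 on arrays 2 and 4. The mean was -2.34 ± 1.80 (SD, n = 4) with a limma adjusted p of 0.0818, or 0.268 without a dye effect, and the second probe averaged -2.38. In the plot of the named probes, the pair of dye orientations separates for contig3082 and contig2337 and stays close together for contig4816 and contig352.

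**Figure D1:**
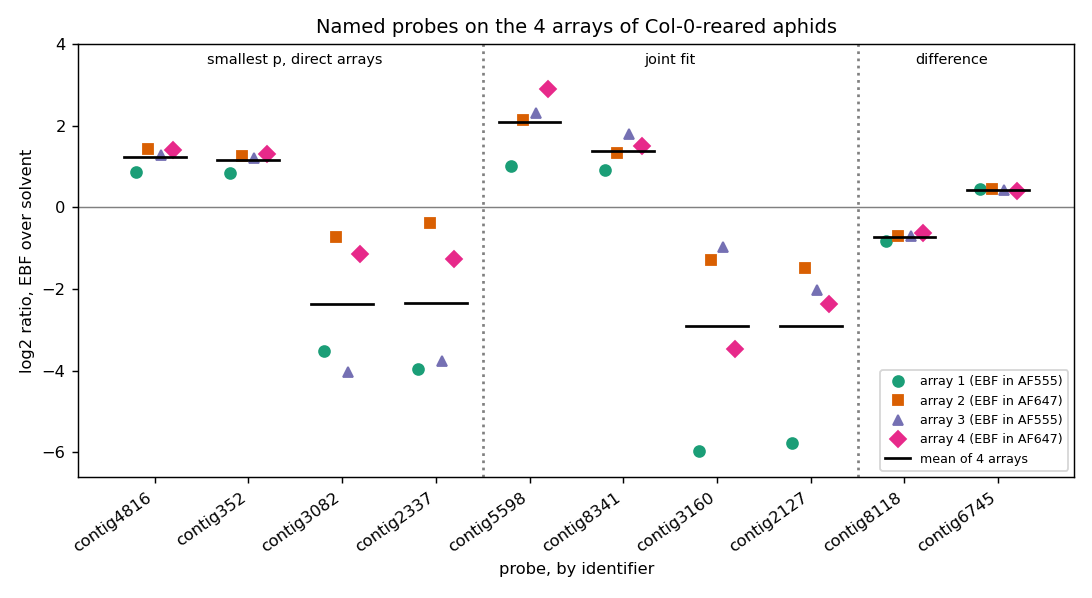
Log2 ratio of exposed over solvent Col-0-reared aphids (vertical axis) for the 10 named contigs (horizontal axis), with 1 symbol per array and a bar at the mean of 4 arrays. Contig4816 and contig352 lie between 0.84 and 1.43 on every array, whereas contig3082 and contig2337 lie at -3.53 or below on arrays 1 and 3 and at -1.26 or above on arrays 2 and 4.

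The ratios of many probes split by dye orientation, which on these 4 arrays cannot be told apart from other differences between arrays 1 and 3 and arrays 2 and 4. Across 12780 probes, the oriented ratios of arrays with the same dyes correlated at r = 0.34 (arrays 1 and 3) and r = 0.54 (arrays 2 and 4). Arrays with exchanged dyes correlated at r = 0.05 to 0.11, or at a median of -0.22 with median centring in place of loess, against 0.08 with loess. Rank correlations did not split by dye in the same way: rho was 0.23 and 0.46 for the pairs with the same dyes, and 0.03, -0.25, 0.33 and 0.30 for arrays 1 and 2, 1 and 4, 2 and 3, and 3 and 4, with exchanged dyes. These are descriptions across probes, which are not independent, and the arrays share a slide. The SD across probes of the dye effect was 0.31, against 0.35 for the response itself. On arrays 1 and 3 together, 141 of the 12770 probes measured on all 4 arrays were over 2-fold higher in exposed aphids and 372 over 2-fold lower. On arrays 2 and 4 the same counts were 331 higher and 134 lower. Both orientations had 43 probes over 2-fold higher and 60 over 2-fold lower in exposed aphids, and 104 probes were over 2-fold lower on arrays 1 and 3 but over 2-fold higher on arrays 2 and 4.

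The dye effect of these 4 arrays correlated across probes with that of the 4 other arrays on the same slide (r = 0.85) more closely than with that of the 8 arrays on the other slide (r = 0.25). The 4 other arrays also hold exposed Col-0-reared aphids, in the same dye on the same array numbers, and the other slide holds none. Dye, slide and any shared extracts therefore cannot be told apart in these values or in the subtraction that follows. When the dye effect of the 4 other arrays on the slide was subtracted, the arrays with exchanged dyes correlated at 0.26 to 0.52. With that of all 12 other arrays subtracted, they correlated at 0.23 to 0.27. The plot of the ratios by dye orientation shows probes with large decreases on arrays 1 and 3 and small ones on arrays 2 and 4.

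**Figure D2:**
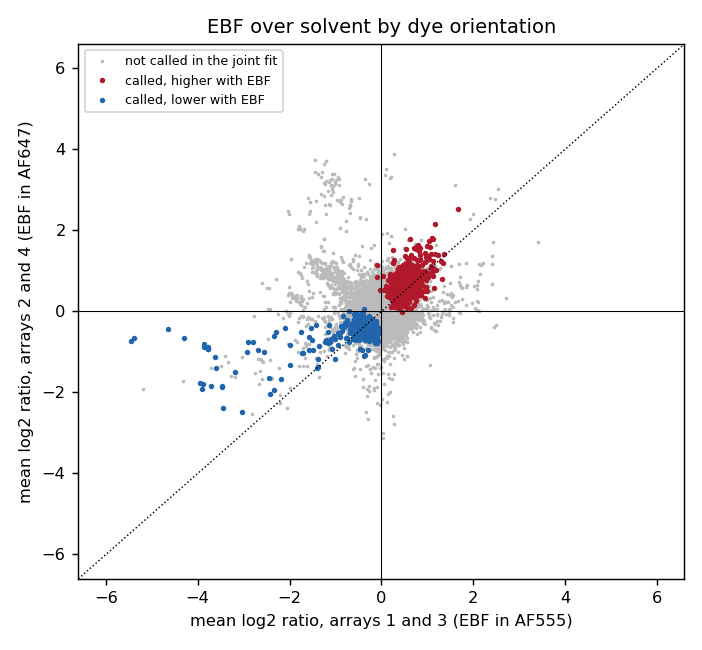
Mean log2 ratio of exposed over solvent Col-0-reared aphids on arrays 1 and 3 (horizontal axis) against arrays 2 and 4 (vertical axis), 1 point per probe, coloured where the joint fit of 16 arrays called the probe; the dotted line marks equal ratios. The 453 probes called higher lie around the diagonal, while part of the 340 called lower stretch to the left, with larger decreases on arrays 1 and 3.

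The balance between higher and lower probes changed with signal. The tested probes were ordered by mean log2 signal and cut into 5 classes of 2556. Among the dimmest class, 384 were higher and 174 lower in exposed aphids at an unadjusted p under 0.05. Among the brightest class, 79 were higher and 188 lower. The classes between had 298 higher and 194 lower, 187 higher and 174 lower, and 108 higher and 132 lower, in order of rising signal. The share with p under 0.05 was 21.8% in the dimmest and 10.4% in the brightest class, against 15% over all tested probes. Changes of over 2-fold were most numerous among the brightest probes, with 61 higher and 63 lower, against 11 higher and 11 lower among the dimmest. The higher share among the dimmest was 68.8%, and it was 61.8% to 78.5% under the other settings tried except centring on spike-ins. That centring, described below, raises every ratio and gave 99.8% among the dimmest and 98.0% among the brightest. The higher share among the brightest was otherwise 29.6%. It was 56.1% without array 3, 47.7% without array 2, and 48.6% with each array centred on its median in place of loess.

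**Figure D3:**
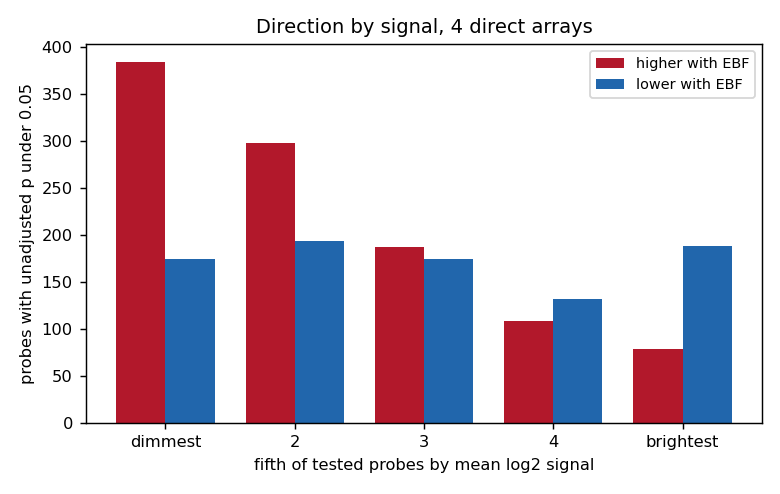
Number of probes with an unadjusted limma p under 0.05 on the 4 arrays (vertical axis), higher (red) or lower (blue) in exposed aphids, by class of the tested probes, cut into 5 equal classes by mean log2 signal (horizontal axis). Higher probes outnumber lower ones among the dimmest, 384 against 174, and lower outnumber higher ones among the brightest, 188 against 79.

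Second probes of the same contig gave nearly the same values. Both probes were tested for 3834 identifiers, and the sizes of the difference between their means had a median of 0.03 and a 95th percentile of 0.19. Of 85 identifiers with at least 1 probe over 2-fold, 73 had both probes over 2-fold in the same direction. At least 1 probe had an unadjusted p under 0.05 for 627 identifiers, with both probes in the same direction for 613 and both under 0.05 for 411. Both probes of a contig share the labelled RNA of each array, so their likeness speaks of the measurement, not of the aphids. Of the probes whose identifiers begin with DW or EB rather than contig, 138 were tested. At an unadjusted p under 0.05, 9 were higher and 29 lower in exposed aphids, together 27.5% against 14.8% for contigs. In the joint fit described next, 5 of these 138 were called, against 783 of 12622 contig probes and 6.21% of all tested probes. Those calls are at an adjusted p under 0.05, an unlike threshold, so they do not bear on the excess at the unadjusted p. Of the other identifiers that are not contigs, 5 of 12 with other accessions and 3 of 8 with FB or GUT names had an unadjusted p under 0.05.

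Few transcripts were detected in one treatment only. All 8 channels of the 4 arrays were well above background for 10611 probes and none of them for 2045. Beside contig4816, contig1973 was the only probe well above background in all 4 exposed and in 0 solvent channels. Its level was 1.20-fold higher in exposed aphids by the same cautious value. Contig1973 is named here after its values were seen. There were 0 probes with the reverse pattern. Per array, the counts of probes detected in one channel alone were uneven, and did not follow the dye orientation. On arrays 1 and 2, 75 and 72 probes were above background in exposed aphids only, and 455 and 703 in solvent aphids only. On arrays 3 and 4 the counts were 707 and 531 in exposed aphids only, and 20 and 110 in solvent aphids only.

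The second question was what the other 12 arrays of the loop add. They give a further path from exposed to solvent Col-0-reared aphids and more arrays to estimate the spread. With spread and dye effect from all 16 arrays, but the response from the 4 direct arrays only, limma called 0 of 12780 probes. The smallest adjusted p was then 0.0603, so the calls below also rest on the further path. In the joint limma fit of all 16 arrays, 793 of 12780 probes (6.21%) had an adjusted p under 0.05 for exposed against solvent Col-0-reared aphids. Of these, 453 (3.54%) rose and 340 (2.66%) fell in exposed aphids, for 624 identifiers in all. On the 4 direct arrays, which are part of this fit, 698 of the 793 had the same sign throughout, 397 higher and 301 lower. The median ratio of the 453 that rose was 0.34, 0.68, 0.72 and 0.69 on arrays 1 to 4, and that of the 340 that fell was -0.43, -0.49, -0.41 and -0.37. Over all tested probes the median of each array lay between -0.01 and 0.02. Array 1 had the smallest median ratio among the probes that rose, and 413 of 453 were above 0 on it, compared with 444 to 451 on the other arrays.

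Among the called probes whose sign was the same throughout the 4 direct arrays, contig5598 had the largest increase by the joint estimate. Its signals were 2018, 5472, 3550 and 5465 in exposed aphids, against 997.1, 1235, 720.6 and 734.5 in solvent aphids. The groups did not overlap, and this was the 1 probe over 2-fold higher on each of the 4 arrays. The ratios of 1.02, 2.15, 2.30 and 2.90 averaged 2.09 ± 0.78 (SD, n = 4), a 4.26-fold higher level. The joint fit gave 2.18 ± 0.27 (SE), with a limma adjusted p of 0.0121. Its change stayed past the threshold in all 29 alternative settings of the joint fit, between 1.96 and 2.42.

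Contig8341 followed, with signals of 1132, 1699, 1352 and 693.6 in exposed aphids, against 598.3, 678.8, 390.0 and 243.3 in solvent aphids. Here too the lowest exposed signal lay above the highest solvent signal. The ratios averaged 1.39 ± 0.37 (SD, n = 4), and the joint fit gave 1.95 ± 0.40 (SE; limma adjusted p 0.0221). The call was kept in 26 of 29 alternatives and lost in the other 3: without array 3, with the array number as a block on slide 1, and with the direction of slide 2 turned.

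Among the same called probes, contig3160 and contig2127 had the largest decreases by the joint estimate, with very unequal ratios between arrays. Contig3160 had signals of 1009, 41610, 23080 and 2986 in exposed aphids, against 62450, 101100, 44960 and 33010 in solvent aphids. The exposed signal was lower on every array, but the groups overlap, since exposed aphids on array 2 were above solvent aphids on array 4. The ratios of -5.95, -1.28, -0.96 and -3.47 averaged -2.92 ± 2.31 (SD, n = 4), and the joint fit gave -2.95 ± 0.76 (SE; limma adjusted p 0.0379). The second probe of contig3160 averaged -2.77 ± 2.05.

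Contig2127 had signals of 572.9, 18010, 6433 and 5249 in exposed aphids, against 31240, 49960, 26260 and 26830 in solvent aphids. These groups did not overlap. The ratios of -5.77, -1.47, -2.03 and -2.35 averaged -2.91 ± 1.94 (SD, n = 4), and the joint fit gave -2.82 ± 0.74 (SE; limma adjusted p 0.0385). Both calls were kept in 16 of 29 alternatives and lost in 13, among them without any one of the 4 direct arrays, while the direction was kept throughout. For contig3160 the joint value lay between -3.42 and -2.14, and for contig2127 between -3.14 and -2.11.

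The number of joint calls depended on single arrays. Without direct array 1, 2, 3 or 4 it was 513, 229, 5 or 343, and contig5598 was still among the 5. Without array 3 of exposed Col-0-reared over exposed 35S:EBFS-reared aphids it was 343, and the count was 383, 401 or 485 without array 1, 3 or 4 of the group that compares exposed with solvent 35S:EBFS-reared aphids. With the array number as a random block on slide 1, on which all arrays with exposed Col-0-reared aphids lie, 61 probes were called, 35 higher and 26 lower, all of them among the 793. The plot of joint calls by setting shows these counts.

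**Figure D4:**
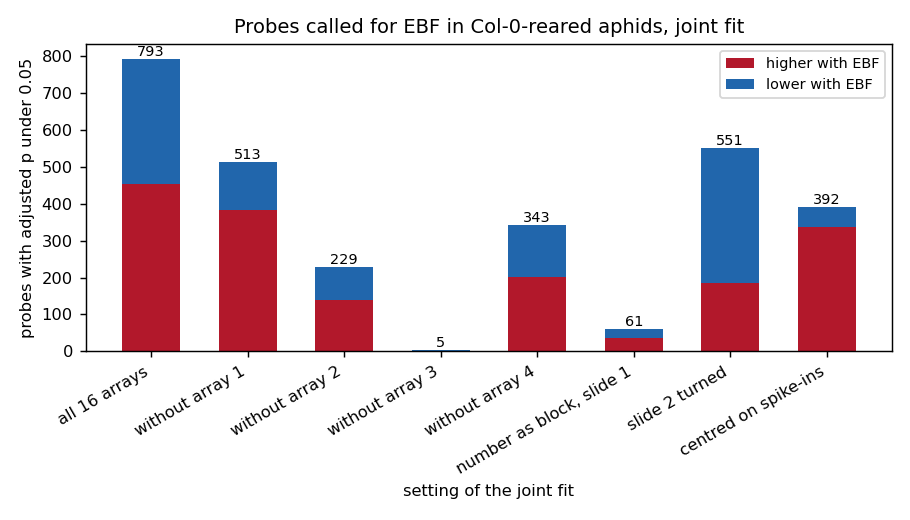
Number of probes with a limma adjusted p under 0.05 for exposed over solvent Col-0-reared aphids in the joint fit (vertical axis), higher (red) and lower (blue) in exposed aphids, for 8 settings (horizontal axis; arrays left out are those of exposed over solvent Col-0-reared aphids). The count is 793 with all 16 arrays and 5 without array 3.

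RNA spike-ins, added per the labels to every sample before amplification, give a scale that does not assume a stable total of aphid transcripts. Their ratio of exposed over solvent aphids, relative to the aphid probes, was below 0 for each of 10 spike-in transcripts in Col-0-reared aphids, with a mean of -0.68 ± 0.12 (SD over spike-ins). After the mean of each spike-in over the 16 arrays was taken off, the median offset was -0.82, -0.87, -0.47 and -0.42 on arrays 1 to 4, and each of the 10 lay below 0 on every array. In 35S:EBFS-reared aphids the mean ratio was 0.87 ± 0.13, above 0 for all 10, and the offsets of the 4 arrays were between 0.36 and 1.25. On array 4 of that group, 3 of the 10 offsets lay below 0. Spike-in ratios thus had opposite directions in the 2 groups, which lie on different slides. The mean was -0.03 for exposed Col-0-reared over exposed 35S:EBFS-reared aphids, and -0.02 for solvent 35S:EBFS-reared over solvent Col-0-reared aphids. The path through the other groups thus ran above 0 and the direct value below 0. The amount of spike-in added and the amount of aphid RNA cannot be told apart from these values, and the cause was not tested.

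When the ratios were centred on the spike-ins, an alternative chosen after seeing the data, the median over all tested probes moved to 0.65, against 0.01 with centring on the probes, and 97.8% of tested probes lay above 0, against 52.6%. On that scale 10311 probes had a limma adjusted p under 0.05, 10229 higher and 82 lower in exposed aphids. Contig5598 then stood at 2.73, while contig3082 (-1.71), contig2337 (-1.70), contig3160 (-2.27) and contig2127 (-2.26) stayed lower in exposed aphids. By its construction this centring adds the same amount to every probe of an array. All other values here are relative to the aphid probes.

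**Figure D5:**
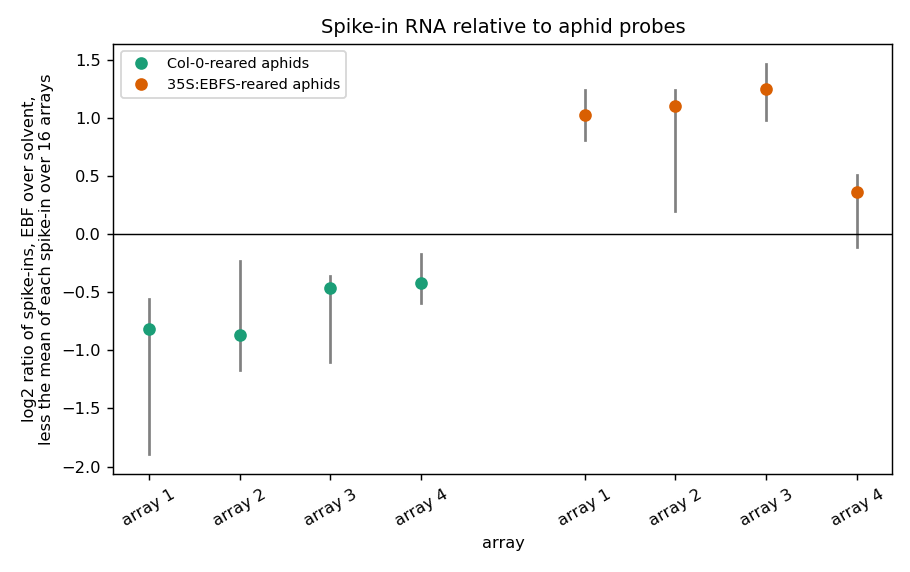
Log2 ratio of exposed over solvent aphids for the spike-in transcripts, less each one's mean over 16 arrays (vertical axis), by array (horizontal axis), for Col-0-reared (green) and 35S:EBFS-reared aphids (orange). Points are medians over 10 spike-ins and lines run between the lowest and the highest; the medians lie between -0.87 and -0.42 in Col-0-reared and between 0.36 and 1.25 in 35S:EBFS-reared aphids.

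The third question was whether the response of Col-0-reared aphids differed from that of 35S:EBFS-reared aphids, measured directly on 4 arrays of each. The difference (35S:EBFS-reared minus Col-0-reared response) had an adjusted p under 0.05 in limma for 0 of 12780 probes (0%), and the smallest adjusted p was 0.107. An unadjusted p under 0.05 was reached by 2526 probes (19.8%), 1325 (10.4%) with a more positive and 1201 (9.4%) with a more negative response in 35S:EBFS-reared aphids. Single arrays moved this count, to 1603 without array 2 of Col-0-reared aphids and to 1506 without array 2 of 35S:EBFS-reared aphids. Without array 1 of Col-0-reared aphids it was 3573. Median centring gave 876 more positive and 1252 more negative. The Col-0 arrays were all on slide 1 and the others on slide 2, so rearing and slide cannot be told apart in this difference. The direction of slide 2 follows the dyes in the labels alone. If it were turned, every ratio of 35S:EBFS-reared aphids would change sign.

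Contig8118 had the smallest p in the first direction. Its ratio was -0.82, -0.71, -0.69 and -0.63 in Col-0-reared aphids, a mean of -0.71 ± 0.08, against 0.23, 0.51, 0.12 and 0.45 in 35S:EBFS-reared aphids, a mean of 0.33 ± 0.18 (SD, n = 4 each). The groups did not overlap, and the difference was 1.04 ± 0.10 (SE; limma adjusted p 0.107). With centring on the spike-ins it was -0.53, with the response of Col-0-reared aphids at -0.07. In Col-0-reared aphids its signals were 7084, 5867, 5321 and 6137 in exposed aphids, against 12540, 9583, 8601 and 9497 in solvent aphids.

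Contig6745 had the smallest p in the other direction. Its ratio was 0.46, 0.45, 0.44 and 0.39 in Col-0-reared aphids, a mean of 0.44 ± 0.03, against -0.14, -0.37, -0.46 and -0.25 in 35S:EBFS-reared aphids, a mean of -0.31 ± 0.14 (SD, n = 4 each). The difference was -0.74 ± 0.11 (SE; limma adjusted p 0.138). The spread of contig6745 over the 4 Col-0 arrays was small against the median SD of 0.27 over all tested probes, and both dye orientations gave the same value within that spread. The contig was picked for its small p in a test that uses these arrays. That choice favours a small spread, so the spread is no further support.

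The contigs named for large changes in Col-0-reared aphids had smaller or opposite mean ratios in 35S:EBFS-reared aphids, but no difference passed the adjusted threshold. They were picked as extremes of the values in Col-0-reared aphids, so smaller means on other arrays can come from the choice alone. These values therefore do not show a response particular to Col-0-reared aphids. Contig3082 averaged -2.36 ± 1.66 in Col-0-reared aphids, against 0.93 ± 0.59 in 35S:EBFS-reared aphids, where it was above 0 on all 4 arrays (difference 3.29, limma adjusted p 0.107). Contig3160 averaged -2.92 ± 2.31 in Col-0-reared aphids, against 0.34 ± 0.75 in 35S:EBFS-reared aphids (difference 3.26, adjusted p 0.185). Contig5598 averaged 2.09 ± 0.78 in Col-0-reared aphids, against 0.50 ± 0.32 in 35S:EBFS-reared aphids, above 0 on all 8 arrays (difference -1.59, adjusted p 0.168). Contig8341 averaged 1.39 ± 0.37 in Col-0-reared aphids, against 1.02 ± 1.06 in 35S:EBFS-reared aphids, a difference of -0.37 with an adjusted p of 0.596.

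The authors' deposited table of exposed over solvent Col-0-reared aphids lists 1976 of 14628 probes with a p under 0.05, 1101 higher and 875 lower in exposed aphids. In the authors' deposited table, 0 stay under 0.05 when these p-values are adjusted by Benjamini-Hochberg, and the smallest adjusted value is 0.199. The log2 fold changes of the authors' deposited table correlate at 0.9998 across probes with the mean of the 4 loess-normalized ratios without background correction. Of its probes with p under 0.05, 1827 were tested here, and 1542 of them also had a p under 0.05. For contig3082 the authors' deposited table gives -2.35 with p = 0.0135, and for contig5598 it gives 2.09 with p = 0.00104.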

How the data were processed

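Two-colour Agilent arrays of Myzus persicae RNA were read from the scanner files. Fluorescence intensity per spot (median signal and median local background of each channel, on a linear scale) was deposited in files which, per the file headers, come from version 10.5.1.1 of Agilent Feature Extraction. The authors' deposited table lists log2 fold changes with p-values for each probe. The submitters' processing notes name limma. The log2 values of the authors' deposited series matrix correlated at 0.9987 or above with the log2 ratios of exposed over solvent aphids computed here for the 4 arrays and served as an alternative; their medians were between -0.020 and 0.020, and 12 other value columns were not used.

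Control spots (1116 of 15744) and outlier spots (17 on the 4 arrays) were left out. In limma 3.58.1 (R 4.3.3), background was corrected with normexp (offset 50), ratios were loess-normalized array by array, and signs were set by the dyes in the labels. Probes well above background in 4 or more of the 8 channels of any condition were tested, with Benjamini-Hochberg adjustment over 12780 probes. The direct fit had a response and a dye effect (2 residual degrees of freedom), and the joint fit 3 condition coefficients and a dye effect (12 residual degrees of freedom). An exact sign-flip test over 4 arrays cannot go below p = 0.125 and was not used. Scripts were tested on simulated data.

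Named probes were at most 2 identifiers higher and 2 lower per fit. For the 4 arrays alone they had the smallest p with the same sign on all arrays and all probes of the identifier in 1 direction. For the joint fit they had the largest change among called probes with the same sign on the 4 arrays, and for the difference, 1 each way, the smallest p. Members, rules and lists were chosen with earlier results of these data known. Alternatives varied background, normalization, filter, dye effect, array weights, blocks and arrays left out.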

Additional observations from a re-analysis of the deposited data

Results flagged for a closer look

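The named probes of contig3082, contig2337 and contig8118 had ratios of exposed over solvent aphids below 0 on all 4 arrays of Col-0-reared aphids and above 0 on all 4 arrays of 35S:EBFS-reared aphids. The second probe of contig2337 was at -0.05 on array 3 of 35S:EBFS-reared aphids. The differences (35S:EBFS-reared minus Col-0-reared) were 3.29, 3.30 and 1.04 on the log2 scale, with limma adjusted p of 0.107 for each. Contig6745 went the other way, above 0 in Col-0-reared and below 0 in 35S:EBFS-reared aphids, with a difference of -0.74 and an adjusted p of 0.138. These contigs were among those named because of their small p, and none of the differences passed the threshold.

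The median offset of the spike-ins, exposed over solvent, was below 0 on all 4 arrays of Col-0-reared aphids and above 0 on all 4 of 35S:EBFS-reared aphids, and the means differed by 1.58 log2 units. This difference was not tested. The 2 groups lie on different slides, and the opposite signs likewise rest on the dyes that the labels give for slide 2. In all, 11 values were examined for opposite signs, and in 18 sets of 4 arrays 0 arrays lay apart from the others, where chance alone would set apart about 1 in 20.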

How the results depend on the processing

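For the response on the 4 direct arrays, the count of calls was 0 under each alternative except spike-in centring (10311) and leaving out array 3. Leaving out 1 array gave 0 to 139. Of these alternatives, 2 took the spread and the dye effect from further arrays as well. All 16 arrays with a coefficient per array group gave 0 calls (smallest limma adjusted p 0.0603). The 8 arrays of slide 1 also gave 0 (smallest limma adjusted p 0.196). The unadjusted count with median centring was 1588 (1054 higher, 534 lower). The joint count of 793 became 454 (216 higher, 238 lower) for probes well above background in all channels of the 4 arrays, 392 (337 higher, 55 lower) with spike-in centring and 1247 (668 higher, 579 lower) with array weights, which shared 763 of the 793. Leaving out any 1 of the 16 arrays gave 5 to 873. Median centring gave 719 (527 higher, 192 lower), and slide 2 with its direction turned 551 (185 higher, 366 lower), of which 325 were shared. For the difference of responses, spike-in centring gave 12515 calls and leaving out 1 array gave 0 to 1, the 1 call arising without array 1 of Col-0-reared aphids. Spike-in centring turned the difference of contig8118 to -0.53 and the higher share of the brightest class to 98.0%; without 1 array that share was 32.3% to 56.1%, the highest without array 3. The cause was not tested.

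The array number as a replicate block gave 669 joint calls (consensus correlation 0.055), 61 when limited to slide 1 (correlation 0.357), and 0 for the difference of responses. The joint blocks used red over green values. Over all groups, same-numbered arrays carry a shared condition in the same dye for some groups and in exchanged dyes for others. Shared extracts could cancel there, so the correlation of 0.055 does not show whether arrays share them. Deviations of same-numbered arrays in the 2 EBF groups correlated at 0.255 (numbers 1 and 3) and 0.144 (2 and 4), which are only 2 independent values once dye effects are removed, so they do not show that numbers pair the arrays. For the 4 arrays alone no block could be fitted, since each number occurs once. Spike-in centring, the leaving out of arrays from the other 3 groups and the settings for the signal classes were chosen after seeing the data. Dim probes limit detection: 1848 probes were not tested.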
